A study of Schmidtea mediterranea with 8 samples.

Results

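Transcript levels of 4 transcription factors of the early growth response and AP-1 families were followed in sorted cells of the planarian flatworm Schmidtea mediterranea. These were the early growth response genes egr-5 (SMED30029873) and egr-3 (SMED30009224), and the AP-1 genes fos-1 (SMED30013808) and jun-1 (SMED30001802). They were taken by identifier from a table of 17882 transcripts. All 4 had a mean of at least 1 RPKM (a read number scaled by transcript length and by library size) and so were among the 15563 transcripts tested.

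RNA-seq was carried out on cells of adult animals (the study kept the asexual strain CIW4), dissociated, stained with the DNA dye Hoechst and separated by flow cytometry into 2 fractions. X1 is the fraction that irradiation removes and holds dividing stem cells, the neoblasts. Xins is the fraction that resists irradiation and is mostly post-mitotic. Each fraction was sampled in 4 libraries of polyadenylated RNA, and no source says whether these came from separate animals or sorts, so the p-values measure only the spread between these libraries.

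Early growth response (EGR) proteins bind DNA through C2H2 zinc fingers, and in vertebrates they are switched on within minutes by growth factors and injury. Fos and Jun are basic leucine zipper proteins that pair to form AP-1, a transcription factor whose subunits are classic immediate early genes. In planarians egr-3, fos-1 and jun-1 are known as genes induced by wounding, whereas egr-5 is known as a regulator of the post-mitotic epidermal lineage. The libraries were used to ask in which fraction such genes are found.

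The table held RPKM values and no sequence. Of the 4 genes, egr-5 alone had primers in the study's cloning table, shown here because they identify the transcript that the study cloned under that name. Capitals mark the bases that remain once the start shared with the other primers is removed.
egr-5 forward primer: CAAATGTGCCATGTGTAGGG
egr-5 reverse primer: TATTCGGGATTTTGAACG

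Depth was even across libraries, with 14323705 to 15523242 reads recovered per library. Pearson correlations of log2(RPKM + 1) across transcripts were 0.974 to 0.986 among X1 libraries, 0.966 to 0.979 among Xins libraries and 0.582 to 0.703 between fractions. The sort was checked on marker transcripts. All 9 neoblast and replication markers were higher in X1, with summed levels of 4566 to 5100 RPKM in X1 and 232 to 424 RPKM in Xins. All 5 epidermal progeny markers were higher in Xins, with sums of 8.64 to 28.0 RPKM in X1 and 1494 to 1704 RPKM in Xins. Piwi-like protein 1, a stem cell marker, was in Xins at 2.53% of its X1 level, and AGAT-1, a marker of late epidermal progeny, was in X1 at 0.511% of its Xins level. Of 22 transcripts with a gut in situ pattern, 18 were tested, of which 3 were higher in X1 and 15 in Xins. By the same limma test (adjusted p under 0.05), 35.5% of all transcripts tested were higher in X1 and 41.7% in Xins. Several of the 15 averaged under 1 RPKM in X1, so they passed the filter only through Xins. With a mean of at least 5 RPKM required, 3 gut transcripts were higher in X1 and 6 in Xins. Sums over the 22 were 116 to 174 RPKM in X1 and 263 to 445 RPKM in Xins.

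The 4 genes did not move together between the fractions. egr-5 and egr-3 were lower in X1, fos-1 was higher in X1, and jun-1 did not pass the test. In the limma fit, 3 of the 4 genes passed an adjusted p of 0.05, while 77.2% of all transcripts tested did. Of these, 1 was higher in X1 (35.5% of all transcripts tested were) and 2 were higher in Xins (41.7%). For 2 of the 4 genes the X1 and Xins libraries did not overlap, as was the case for 71.2% of all transcripts tested. Counts over 4 genes are a description, and they do not set these genes apart from the table. In bulk RNA, fewer cells carrying a transcript and less of it per cell cannot be told apart.

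egr-5 was the member with the largest difference. It had 1.80, 2.13, 2.68 and 3.24 RPKM in X1 replicates 1 to 4, against 50.4, 51.3, 47.1 and 56.6 RPKM in Xins replicates 1 to 4. All X1 libraries were low and all Xins libraries high, with no value in between. The mean was 2.46 ± 0.632 RPKM in X1 and 51.3 ± 3.95 RPKM in Xins (SD, n = 4 each), so X1 held 4.79% of the level in Xins. The difference on the log2(RPKM + 1) scale, X1 minus Xins, was -3.93 (SE 0.16, 95% interval -4.29 to -3.58, limma adjusted p of 1.3e-09). This was larger in size than the difference of 94.9% of the transcripts tested.

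The X1 values of egr-5 rested on few reads. There were 38, 42, 50 and 54 reads in X1 replicates 1 to 4, against 1193, 1156, 1059 and 1322 reads in Xins replicates 1 to 4. With exact Poisson intervals at 95%, which cover counting error only, the lowest X1 library lay at 1.27 to 2.47 RPKM and the highest at 2.43 to 4.22 RPKM. The coefficient of variation was 25.7% in X1 and 7.69% in Xins, beside counting errors of 14.9% and 2.91%. The X1 signal of egr-5 was above 0 in each library, and its spread in X1 was wider than in Xins relative to the mean.

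Levels of egr-5 in X1 were set beside those of epidermal progeny markers, which belong to post-mitotic cells. Relative to the Xins mean, egr-5 stood at 3.50%, 4.15%, 5.21% and 6.30% in X1 replicates 1 to 4. The summed progeny markers AGAT-1, zpuf-6, odc-1, gatm and vim-3 stood at 0.558%, 0.639%, 1.26% and 1.81% of their Xins mean in the same libraries. Both were lowest in X1 replicate 1 and highest in X1 replicate 4, and egr-5 was the higher percentage in all 4 libraries. None of the 5 markers was at 0 in any library. Over single markers, the X1 mean ranged from 0.511% of the Xins mean for AGAT-1 to 13.8% for vim-3, a marker with a low level in both fractions. The part of progeny cells in the X1 signal of egr-5 was not tested.

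**Figure D1:**
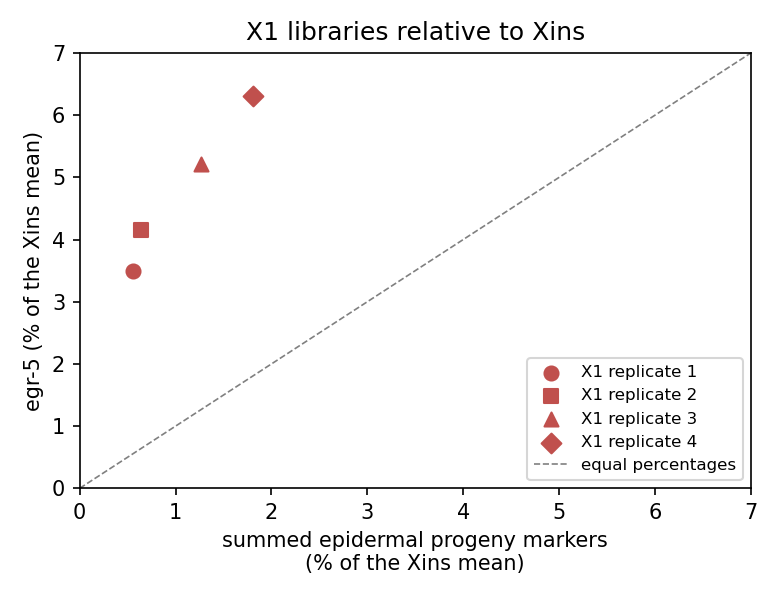
Level of egr-5 (vertical axis) and of 5 summed epidermal progeny markers (horizontal axis) in each X1 library, both as a percentage of the mean of the 4 Xins libraries. The 4 points run from 0.558% and 3.50% in replicate 1 to 1.81% and 6.30% in replicate 4, all above the dashed line of equal percentages.

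egr-3 was abundant in both fractions and somewhat lower in X1. It had 91.6, 105.9, 80.7 and 120.1 RPKM in X1 replicates 1 to 4, against 136.4, 124.3, 150.1 and 106.7 RPKM in Xins replicates 1 to 4. The fractions overlapped, because X1 replicate 4 lay above Xins replicate 4. Means were 99.6 ± 17.1 RPKM in X1 and 129 ± 18.4 RPKM in Xins (SD, n = 4 each), the X1 level being 77.0% of the Xins level. X1 minus Xins came to -0.38 on the log2 scale (95% interval -0.72 to -0.04, SE 0.16, limma adjusted p of 0.043), and 18.8% of transcripts tested had a smaller difference. The call depended on the settings in both directions. The difference was larger after rescaling to a common sum (-0.57, limma adjusted p of 0.0013), with summed reads (-0.63, limma adjusted p of 0.00081), after quantile normalization (-0.49, limma adjusted p of 0.0047) and with median-ratio rescaling (-0.43, limma adjusted p of 0.024). However, the exact two-sided permutation p was 0.0571 over 4 against 4 libraries, and limma without a mean-variance trend gave an adjusted p of 0.064. The limma adjusted p was also above 0.05 without X1 replicate 1 (0.095), 2 (0.060) or 3 (0.148), and without Xins replicate 1 (0.093), 2 (0.060) or 3 (0.106).

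fos-1 was the member higher in X1. It had 201.9, 123.6, 169.1 and 130.8 RPKM in X1 replicates 1 to 4, against 99.5, 113.4, 86.8 and 99.2 RPKM in Xins replicates 1 to 4. The lowest X1 library lay above the highest Xins library, while the X1 libraries themselves were spread 1.63-fold. Means were 156 ± 36.3 RPKM in X1 and 99.7 ± 10.9 RPKM in Xins (SD, n = 4 each), a ratio of 1.57. X1 exceeded Xins by 0.62 on the log2 scale (95% interval 0.26 to 0.99, SE 0.17, limma adjusted p of 0.0048), larger than that of 30.3% of transcripts tested. The call depended on how libraries were scaled, since it was 0.43 (limma adjusted p of 0.065) after rescaling to a common sum and 0.37 (limma adjusted p of 0.097) with library sizes taken from summed reads.

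jun-1 was the most abundant of the 4 genes and no difference was detected. It had 233.7, 173.5, 178.7 and 159.0 RPKM in X1 replicates 1 to 4, against 224.7, 188.8, 200.1 and 129.5 RPKM in Xins replicates 1 to 4. The ranges overlapped almost fully, with replicate 1 highest and replicate 4 lowest in both fractions. Means were 186 ± 32.7 RPKM in X1 and 186 ± 40.4 RPKM in Xins (SD, n = 4 each). On the log2 scale X1 minus Xins was 0.02 with an SE of 0.18 (limma adjusted p of 0.94), and the 95% interval of -0.38 to 0.42 still holds differences of the size seen for egr-3.

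**Figure D2:**
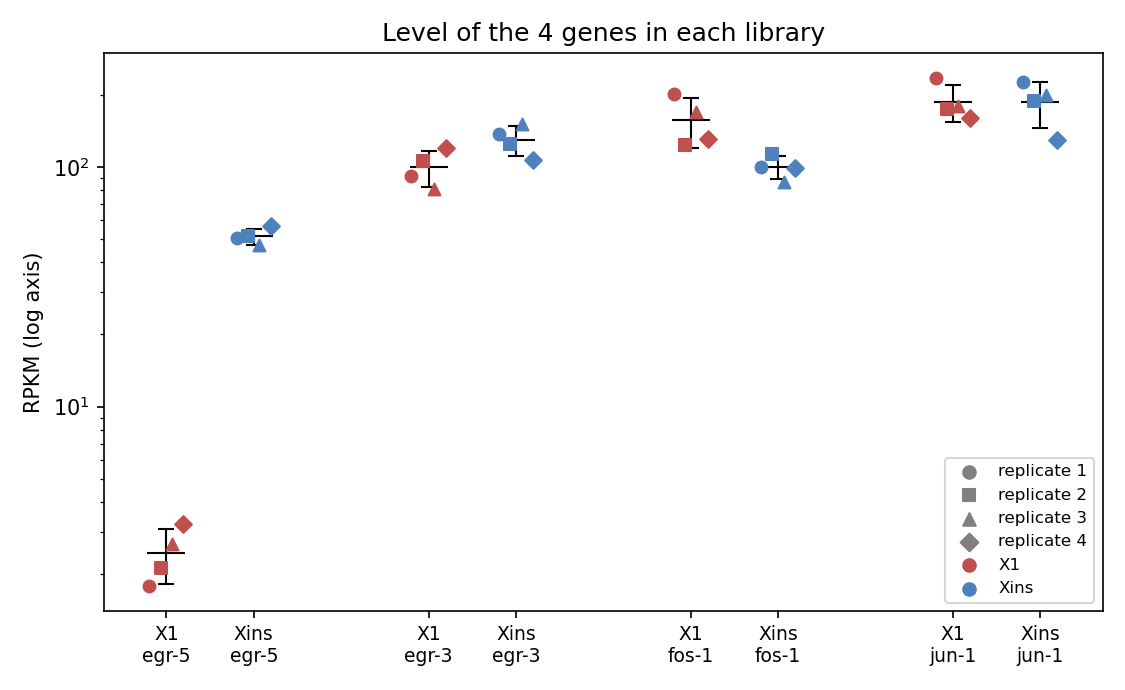
RPKM (log axis) of egr-5, egr-3, fos-1 and jun-1 in each library of X1 (red) and Xins (blue). Symbols mark the replicate number, and black bars give the mean ± SD of 4 libraries. The X1 and Xins libraries are separate for egr-5 (means 2.46 and 51.3 RPKM) and fos-1 (156 and 99.7 RPKM), and overlap for egr-3 and jun-1.

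The median log2 difference over all transcripts tested was -0.11, and it moved with the scaling of libraries. Relative to that median, the differences were -3.82 for egr-5, -0.27 for egr-3, 0.73 for fos-1 and 0.13 for jun-1. The median moved to -0.27 after rescaling to a common sum and to -0.32 with summed reads, and the difference of fos-1 above it was 0.70 and 0.69. After quantile normalization the median was 0.22, the difference of fos-1 above it was 0.31, and that of jun-1 was -0.29. Relative to the median, jun-1 therefore changed sign with the scaling while egr-5, egr-3 and fos-1 did not under these 3 scalings.

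**Figure D3:**
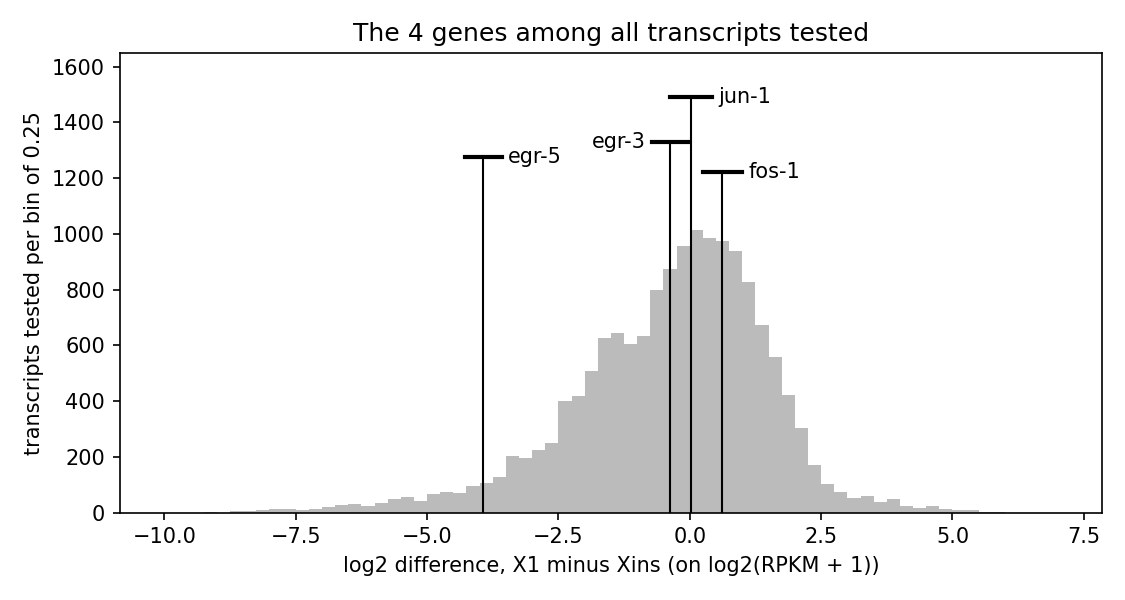
Log2 difference, X1 minus Xins, of the transcripts tested (grey, number of transcripts per bin of 0.25) with the 4 genes as vertical lines and their 95% intervals as horizontal bars. egr-5 lies in the left tail at -3.93, while egr-3 at -0.38, jun-1 at 0.02 and fos-1 at 0.62 lie in the centre. The heights of the lines carry no value.

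RPKM is per length, so levels can be ranked between genes. In all 4 X1 libraries the order was jun-1, fos-1, egr-3 and egr-5 from highest to lowest. In all 4 Xins libraries it was jun-1, egr-3, fos-1 and egr-5, so that egr-3 and fos-1 changed places. jun-1 held ranks 556 to 994 of the table in X1 libraries and 563 to 974 in Xins libraries. fos-1 held ranks 651 to 1199 in X1 and 1176 to 1563 in Xins, and egr-3 held ranks 1287 to 1634 in X1 and 909 to 1161 in Xins. egr-5 ranked far lower in X1, at 9850 to 11330, against 1974 to 2540 in Xins. Put as a percentile, 36.6% to 44.9% of transcripts lay below egr-5 in X1 libraries and 85.8% to 89.0% in Xins libraries. The summed level of the 4 genes was 405 to 529 RPKM in X1 and 392 to 511 RPKM in Xins.

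Neighbours in these orders were often close. In X1, fos-1 lay above egr-3 without overlap, whereas jun-1 and fos-1 overlapped in level across libraries, and the fos-1 to jun-1 ratio within a library was 0.713 to 0.946. In Xins, egr-3 and fos-1 also overlapped, with a ratio within a library of 1.08 to 1.73, and jun-1 overlapped with egr-3. Over 4 libraries a sign-flip test of such an order cannot go below a p of 0.125, so the order within a fraction is given as a description. egr-5 stood apart from the other 3 genes in both fractions, since its highest value was below their lowest.

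Ratios inside a library do not depend on how libraries were scaled to each other, and 6 were compared between fractions with an exact two-sided permutation test (70 splits, smallest p of 0.0286), with Benjamini-Hochberg adjustment over the 6. The ratio of egr-3 to fos-1 was 0.454, 0.856, 0.477 and 0.918 in X1 replicates 1 to 4, against 1.37, 1.10, 1.73 and 1.08 in Xins replicates 1 to 4. It was thus below 1 in every X1 library and above 1 in every Xins library. The geometric mean was 0.642 in X1 and 1.29 in Xins, and the ratio differed by -1.01 on the log2 scale (exact permutation p of 0.0286, adjusted 0.0429). Leaving out 1 Xins library raised the exact p to between 0.0571 and 0.0857.

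The ratio of fos-1 to jun-1, the AP-1 pair, was 0.864, 0.713, 0.946 and 0.823 in X1 replicates 1 to 4, against 0.443, 0.601, 0.434 and 0.766 in Xins replicates 1 to 4. Xins replicate 4 lay within the X1 range, so the fractions overlapped. The log2 difference was 0.61 and did not pass (exact permutation p of 0.0571, adjusted 0.0686). Leaving out 1 library gave unadjusted exact permutation p-values of 0.0286 to 0.114, the lowest of them without Xins replicate 4 and the others from 0.0571 upward. The ratio of egr-3 to jun-1 was 0.392 to 0.756 in X1 and 0.607 to 0.824 in Xins, and its log2 difference of -0.40 did not pass either (exact permutation p of 0.2, adjusted 0.2).

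The ratios of egr-5 to the other genes separated the fractions most widely. The geometric mean of egr-5 to egr-3, the EGR pair, was 0.0244 in X1 and 0.399 in Xins, which differ by -4.03 on the log2 scale. That of egr-5 to fos-1 was 0.0157 in X1 and 0.516 in Xins, and that of egr-5 to jun-1 was 0.0130 in X1 and 0.281 in Xins. For these 3 ratios the fractions did not overlap, and each had the smallest exact permutation p that the design allows (0.0286, adjusted 0.0429). All 3 contain egr-5 and largely restate its difference, so they are not 3 separate results. The adjusted value, which egr-3 to fos-1 shares, rests on these ratios being tied at the smallest p.

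**Figure D4:**
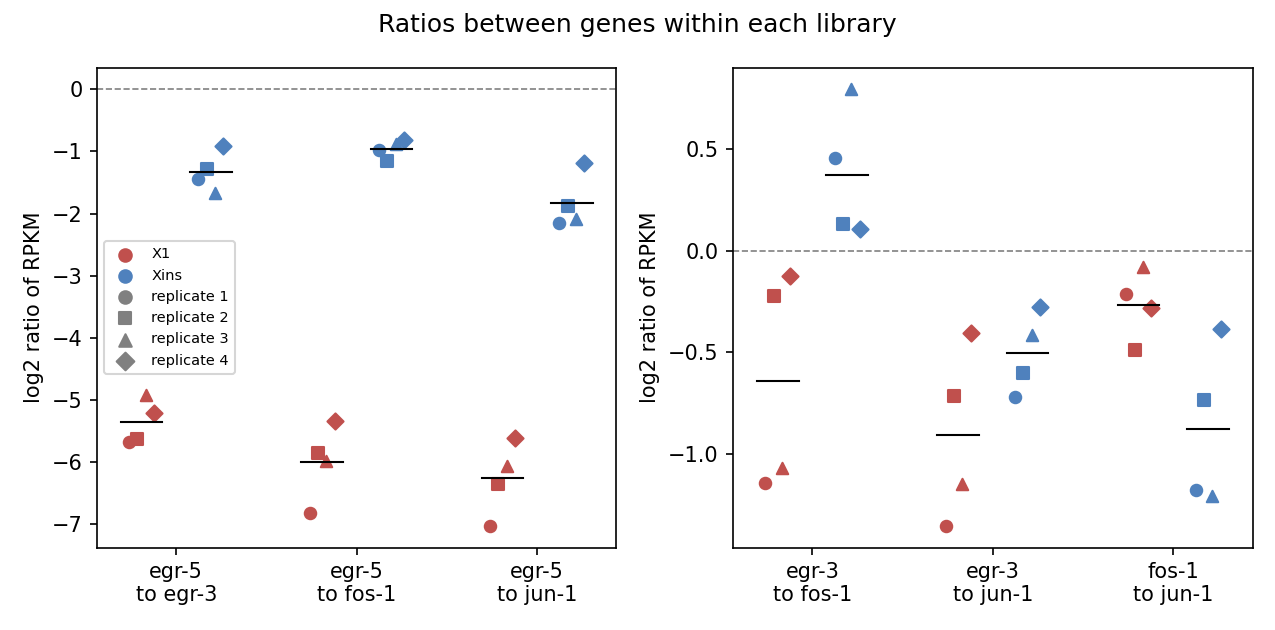
Log2 ratio of RPKM between 2 genes inside each library, X1 (red) left of Xins (blue), with replicate symbols and the mean of 4 libraries as a black line. The dashed line marks equal levels. The egr-3 to fos-1 ratio lies below it in all X1 libraries and above it in all Xins libraries, and the egr-5 ratios of the left panel lie below it in all 8 libraries.

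The spread of the 4 genes within a fraction was ordinary for this table. The pooled SD within fractions on the log2(RPKM + 1) scale was 0.20 for egr-5, 0.23 for egr-3, 0.26 for fos-1 and 0.29 for jun-1. For egr-5 the added 1 narrows the spread at its low X1 level, where its coefficient of variation was 25.7%, against 7.69% in Xins. Of the transcripts tested, 27.5% had a smaller SD than egr-5, 38.6% than egr-3, 50.3% than fos-1 and 63.0% than jun-1. Among the 7494 transcripts with a mean of at least 10 RPKM, 73.8% had a smaller SD than jun-1. Counting error was small beside this spread for the 3 abundant genes, at 3.32% in X1 and 2.64% in Xins for egr-3, and under that for fos-1 and jun-1.

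Libraries of a fraction were then compared by how far each gene deviated from its fraction mean on the log2 scale. In X1 replicate 1, fos-1 (0.39) and jun-1 (0.34) were high while egr-5 (-0.29) and egr-3 (-0.10) were low. In X1 replicate 4 the signs were opposite, with egr-5 at 0.31 and egr-3 at 0.28, and fos-1 at -0.23 and jun-1 at -0.21. The farthest deviation was that of jun-1 in Xins replicate 4 (-0.49), where egr-3 was at -0.26, fos-1 close to its mean and egr-5 at 0.14.

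**Figure D5:**
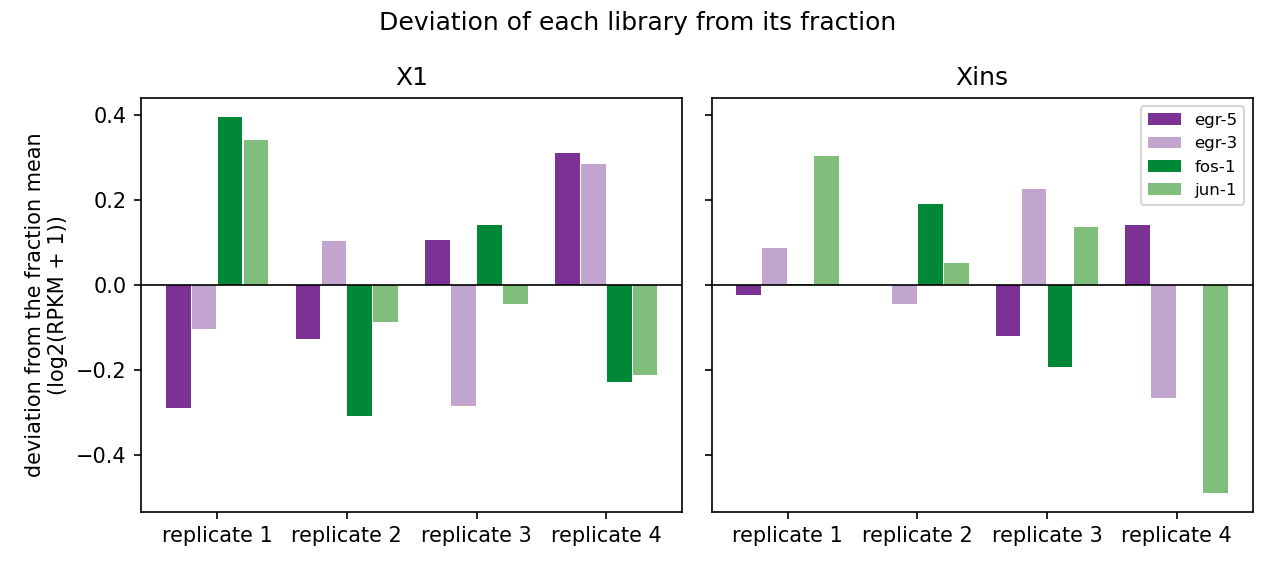
Deviation of each gene from its fraction mean, on the log2(RPKM + 1) scale, in the 4 X1 libraries and the 4 Xins libraries. With the values as deposited, X1 replicates 1 and 4 show opposite signs for the EGR genes (purple) and the AP-1 genes (green). For egr-3 this depends on the scaling of libraries. The lowest bar is that of jun-1 in Xins replicate 4 (-0.49).

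Across the 8 libraries, with the fraction mean removed, no pair of genes covaried past 0.05 after adjustment over the 6 pairs. fos-1 and jun-1 deviated with the same sign in 6 of 8 libraries (Pearson r 0.42, exact permutation p of 0.297, adjusted 0.594). Their Spearman rho was 0.60 (exact permutation p of 0.16). Without X1 replicates 1 and 2, the 2 libraries farthest from the median of fos-1, their r was 0.10. egr-5 and jun-1 had the largest r in size with the values as deposited, with the same sign in 2 of 8 libraries. The Pearson r of egr-5 and jun-1 was -0.70 (exact permutation p of 0.0243, adjusted 0.146) and their Spearman rho -0.71 (exact permutation p of 0.0625, adjusted 0.347). Their r was -0.58 without X1 replicates 1 and 4, the 2 libraries farthest from the median of egr-5. With all 8 libraries rescaled to a common sum, the r of egr-5 and jun-1 was -0.46, against 0.67 for fos-1 and jun-1 (exact permutation p of 0.318 and 0.0903).

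egr-3 and fos-1 also tended to opposite signs, but not past the test (Pearson r -0.65, exact permutation p of 0.144, adjusted 0.432). Their Spearman rho was -0.67 (exact permutation p of 0.174). Without X1 replicate 3 and Xins replicate 4, the 2 libraries farthest from the median of egr-3, their r was -0.86. For egr-5 and egr-3 the r was 0.03 (exact permutation p of 0.953) and rho -0.05 (exact permutation p of 0.934), and r fell to -0.95 without X1 replicates 1 and 4. For egr-5 and fos-1 the r was -0.35 (exact permutation p of 0.519) and rho -0.19 (exact permutation p of 0.663), against an r of 0.71 without those libraries. For egr-3 and jun-1 the r was 0.23 (exact permutation p of 0.587) and rho -0.02 (exact permutation p of 0.972). Without X1 replicate 3 and Xins replicate 4 their r was -0.61. These 3 relations (adjusted p of 0.953, 0.704 and 0.704, exact permutation) changed sign and so rested on the libraries left out.

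Transcripts with the most similar profile were looked up for each gene among 853 of the 7494 transcripts with a mean of at least 10 RPKM. These 853 had a protein hit or name in the study's tables, which hold only transcripts that changed in chd4 or p53 RNAi animals. The rest were not searched, so closest and nearest hold within this set. The measure was the root-mean-square difference of centred log2(RPKM + 1) over the 8 libraries. Closest to egr-5 were transcripts described as Proactivator polypeptide (0.0914), Rab-27B (0.120) and Granulins (0.130). Proactivator polypeptide averaged 1.79 RPKM in X1 and 44.1 RPKM in Xins. Rab-27B averaged 0.430 RPKM in X1 and 20.7 RPKM in Xins, and Granulins 0.508 RPKM and 21.0 RPKM. The added 1 compresses values this low in X1, so a close profile here does not mean an equal ratio between fractions. Closest to egr-3 were Transmembrane protein 41B (0.126), Zinc transporter SLC39A7 (0.135) and Angio-associated migratory cell protein (0.140). fos-1 was nearest to ADP-ribosylation factor-like protein 6-interacting protein 1 (0.159), a Rieske domain-containing protein (0.195) and Threonine synthase-like 2 (0.200). jun-1 was nearest to Very-long-chain 3-oxoacyl-CoA reductase (0.178), Dynein light chain roadblock-type 2 (0.215) and Sterol O-acyltransferase 1 (0.219). The same measure between the 4 genes was 0.347 for egr-3 and jun-1, 0.399 for fos-1 and jun-1, 0.629 for egr-3 and fos-1, and 1.80 to 2.30 between egr-5 and the others.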

How the data were processed

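Sorted cells were profiled by RNA-seq in 4 X1 and 4 Xins libraries. The authors deposited RPKM values per transcript; the submitters' processing notes name CASAVA 1.8.2, Bowtie and edgeR. Alignment settings for the sorted cells are not stated in the sources used. Reads that match several close copies may have been divided or discarded, which makes gene families uncertain. All 8 columns were mapped to samples by name, leaving 0 unmapped, and no genome was used.

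The RPKM steps gave whole reads, within 0.001 of a read, for all 17882 transcripts. The deposited RPKM implied library sizes that, divided by these reads, gave 0.823 to 1.02 for X1 and 1.02 to 1.15 for Xins, so libraries had already been scaled to each other.

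Values were analysed as log2(RPKM + 1), which understates changes of low transcripts. Transcripts with a mean of at least 1 RPKM were kept (15563, with 2319 left out). The test was limma 3.58.1 (R 4.3.3) with a mean-variance trend, two-sided, with Benjamini-Hochberg adjustment over the transcripts kept. No count model was used as the main test; limma-voom on the recovered reads was an alternative, as were other pseudocounts, filters, scalings, a replicate block and leaving out each library. Ratios and covariation were tested by exact permutation in Python 3.11.15 with numpy 2.4.6 and scipy 1.17.1. The scripts were tested on simulated data.

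Named are the 4 genes, for each the 3 transcripts of most similar profile, transcripts with the largest differences without overlap in each list, and markers. Marker groups, lists and genes were chosen with earlier results of these data known.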

Additional observations from a re-analysis of the deposited data

How the results depend on the processing

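egr-5 stayed past the threshold in all of its 20 alternatives (-4.43 to -2.92), and the number of transcripts that differed was 8088 to 13368 beside 12011. The X1 share of these calls was 45.9% (5519 higher in X1, 6492 in Xins) and 56.0% after quantile normalization (6902 and 5414). limma-voom on recovered reads, where all values came out whole, called 5496 higher in X1 and 6462 in Xins.

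egr-3 was no longer past the threshold, at -0.38, without the trend (limma adjusted p of 0.064), with a replicate block (limma adjusted p of 0.087) and by exact permutation (p of 0.0571). fos-1 was not past it at 0.43 (common sum) and 0.37 (summed reads). The jun-1 difference, far from the threshold throughout, turned to -0.035 with median-ratio rescaling, -0.18 with a common sum, -0.075 with quantile normalization and -0.24 with summed reads. Leaving out each library gave -4.04 to -3.84 for egr-5, -0.47 to -0.28 for egr-3, 0.49 to 0.72 for fos-1 and -0.15 to 0.12 for jun-1, which was below 0 without X1 replicate 1 or Xins replicate 4. Over all alternatives the adjusted p was 0.000808 to 0.148 for egr-3 and 0.0014 to 0.0970 for fos-1. Transcripts higher in Xins ranged from 3 to 8 in the receptor and MAP kinase list and from 5 to 18 among TRAF transcripts, both lowest with a minimum of 5 RPKM, which tests fewer of them, and the first equally low with quantile normalization. The other causes were not tested.

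No pairing by replicate number was seen across the libraries. Correlations of same-numbered deviations were 0.27, -0.19, -0.12 and -0.016 for numbers 1 to 4, and 1 of 4 X1 libraries (number 1) correlated best with its own number. Such correlations between different fractions cannot exclude that same-numbered libraries shared a sort, which no label states. With the replicate block, 5457 transcripts were higher in X1 and 6454 in Xins. A sign-flip test over same-numbered libraries cannot go below 0.125, which was its p for all 6 ratios, so it sets none of them apart. The differences were -4.03 for egr-5 to egr-3, -5.04 for egr-5 to fos-1 and -4.43 for egr-5 to jun-1. They were -1.01 for egr-3 to fos-1, -0.40 for egr-3 to jun-1 and 0.61 for fos-1 to jun-1.

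Leaving out each library, the ratio differences were -4.18 to -3.90 for egr-5 to egr-3, -5.26 to -4.77 for egr-5 to fos-1, -4.65 to -4.18 for egr-5 to jun-1, -1.18 to -0.84 for egr-3 to fos-1, -0.57 to -0.25 for egr-3 to jun-1 and 0.50 to 0.77 for fos-1 to jun-1. The r of egr-5 and jun-1 was -0.46 with a common sum and -0.76 with quantile normalization, neither past 0.05 by exact permutation. That of egr-5 and egr-3 was -0.43 and -0.32 under these scalings, and that of egr-5 and fos-1 was 0.017 with a common sum. That of egr-3 and fos-1 was -0.18 with a common sum and -0.39 with quantile normalization, that of fos-1 and jun-1 was 0.67 and 0.60, and that of egr-3 and jun-1 was 0.47 and 0.38. Without 1 library, r was -0.79 to -0.54 for egr-5 and jun-1, -0.71 to 0.27 for egr-5 and egr-3, -0.66 to 0.28 for egr-5 and fos-1, -0.38 to 0.56 for egr-3 and jun-1, -0.78 to -0.55 for egr-3 and fos-1 and 0.034 to 0.66 for fos-1 and jun-1. Low read numbers limit the X1 values of egr-5 (184 reads in all).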

Other observations

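Other transcripts with related roles were counted from lists drawn from the study's tables, which hold only transcripts that changed in chd4 or p53 RNAi animals. In the limma fit, 77.2% of all transcripts tested passed, 35.5% toward X1 and 41.7% toward Xins. Of 9 other C2H2 zinc finger transcripts, the class that holds the EGR genes, 7 were tested. Of these 4 passed toward X1 and 2 toward Xins, and the median log2 difference was 0.56, against -0.11 over all transcripts tested. The highest of them (SMED30023708) averaged 374 ± 30.4 RPKM in X1 and 18.7 ± 3.60 RPKM in Xins. The transcript described as Gfi-1, a zinc finger repressor in vertebrates, averaged 11.0 ± 1.39 RPKM in X1 and 105.6 ± 14.8 RPKM in Xins, and differed by -3.15 on the log2 scale (limma adjusted p of 2.8e-09). Among 10 other DNA-binding factors, 8 were tested, 5 passed toward X1 and 3 toward Xins (35.5% and 41.7% of all transcripts tested), with a median of 1.03. SOX-13, an HMG box factor, averaged 148 ± 10.8 RPKM in X1 and 5.95 ± 1.97 RPKM in Xins, and Sox-8 averaged 54.5 ± 7.90 RPKM in X1 and 188 ± 37.4 RPKM in Xins (SD, n = 4 each).

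Receptors and transcripts with a protein hit related to MAP kinase signalling were counted in the same way. In vertebrates such pathways relay the signals that induce EGR and AP-1 genes. Several of those listed have a plant kinase as their protein hit, and another is described as a phosphatase. Their roles in planarians were not tested. Of 16 listed, 15 were tested, of which 5 were higher in Xins by the limma test and 10 did not pass it, with a median log2 difference of -0.21. Toward Xins 41.7% of all transcripts tested passed, and the count of 5 was between 3 and 8 under the alternatives. Fibroblast growth factor receptor 2 averaged 1.17 ± 0.627 RPKM in X1 and 8.81 ± 0.890 RPKM in Xins. Other listed transcripts, described as fibroblast growth factor receptor 1, differed less. SMED30034490 averaged 54.1 ± 2.17 RPKM in X1 and 48.9 ± 6.98 RPKM in Xins, with overlap (limma adjusted p of 0.32). SMED30030751 averaged 8.18 ± 0.972 RPKM in X1 and 10.9 ± 0.768 RPKM in Xins (limma adjusted p of 0.031). Of 27 TRAF transcripts, adaptors of TNF receptor signalling that form a family of close copies, 19 were tested. Of these 2 passed toward X1 and 16 toward Xins (35.5% and 41.7% of all transcripts tested), with a median of -1.67. Several of the 16 averaged under 1 RPKM in X1, so they passed the filter only through Xins. With a mean of at least 5 RPKM required, 2 passed toward X1 and 5 toward Xins. TNF receptor-associated factor 4 (SMED30025885) was the furthest in X1, with 44.2 ± 6.39 RPKM in X1 and 1.12 ± 0.447 RPKM in Xins (SD, n = 4 each). The study's own traf-4 is another transcript (SMED30033686), with 0.0819 ± 0.103 RPKM in X1 and 2.47 ± 0.522 RPKM in Xins. Furthest in Xins was a TNF receptor-associated factor 6 transcript (SMED30019465), with 0.184 ± 0.194 RPKM in X1 and 17.7 ± 3.51 RPKM in Xins.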
